A study of Homo sapiens with 4 samples.

Results

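The genes described here encode 10 enzymes, most of which affect the polyunsaturated and monounsaturated fatty acids that enter membrane phospholipids. They were chosen by symbol (*ACSL4*, *ACSL3*, *LPCAT3*, *AGPS*, *SCD*, *FADS1*, *FADS2*, *ELOVL5*, *POR* and *CYB5R1*), with earlier results of these data known, and all 10 were among the 28278 genes of the count table. RNA-seq had been performed on cells labelled HepG2, a human hepatocellular carcinoma line, that carried lentiviral Cas9 with either a control sgRNA (control, 2 libraries) or a sgRNA against *USP22* (sgUSP22, 2 libraries). Both groups had been treated with 10 µM Sorafenib, a multi-targeted tyrosine kinase inhibitor, for 24 h, so untreated cells are not part of the comparison. Each group was a puromycin-selected population infected with 1 sgRNA, and the labels do not say whether its 2 libraries came from separate cultures. The p-values therefore measure the spread between these libraries, which may be technical.

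Ferroptosis is a form of cell death in which iron drives the peroxidation of polyunsaturated fatty acids held in phospholipids. ACSL4 attaches coenzyme A to arachidonic and adrenic acid, and LPCAT3 places such acyl chains into lysophospholipids, so both feed peroxidisable lipid into membranes. ACSL3 activates monounsaturated fatty acids, and SCD makes these from saturated ones, and both counter peroxidation. FADS2, ELOVL5 and FADS1 act in this order to desaturate and lengthen dietary polyunsaturated fatty acids, POR and CYB5R1 pass electrons from reduced nicotinamide cofactors and can yield hydrogen peroxide, and AGPS builds the ether bond of ether phospholipids, which can also carry polyunsaturated chains.

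The libraries held between 62030307 and 64728272 counts. Counts were scaled to library size as CPM with TMM factors, which correct for differences in RNA composition, and 15150 genes passed the filter on low counts, all 10 members among them. *USP22* itself was higher, not lower, under the sgUSP22 label, with 16450 and 16537 counts in control and 20279 and 20368 counts in sgUSP22 libraries (log2 fold change 0.22 ± 0.034 SE, the standard error, edgeR adjusted p = 0.000394). Every direction below therefore follows the label and not the level of the transcript. The study checked its knockout by Western blot, which measures protein, and these counts do not. The defining markers of hepatocytes were mostly absent, as 10 of 20 were listed at 0 in all 4 libraries, including *ALB*, *APOA1*, *APOB* and *TTR*, while *AFP* had at most 4 counts. The summed level of that list, between 980 and 1021 CPM in control and between 1303 and 1333 CPM in sgUSP22 libraries, came almost wholly from *CPS1*, which had 1016 and 975 CPM in control and 1329 and 1299.8 CPM in sgUSP22 libraries. All 7 mesenchymal markers had counts in at least 1 library (*COL1A2* had at most 7), with *VIM* at 1078 and 1067 CPM in control libraries and 830 and 806 CPM in sgUSP22 libraries. That list went both ways, as *FN1* was called higher (1.13 on the log2 scale), *PDGFRB* was called lower (-0.98), *COL3A1* rose by less than 1.5-fold (0.19) and *VIM* fell. The summed level of the list was between 1934 and 1938 CPM in control and between 2066 and 2088 CPM in sgUSP22 libraries. *CDH1* and *KRT19* were listed at 0 in all 4 libraries, *EPCAM* had at most 4 counts, and *KRT8* and *KRT18* were abundant. The blood markers summed to at most 73.9 CPM, nearly all from *CD68*, and the endothelial markers to at most 0.529 CPM. The markers thus go against the liver identity in the label, and what this means for the members was not tested.

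To show where the promoters of the members lie, stretches before the annotated start were read from RefSeq on GRCh38.p14, which held 9 windows for 8 of the 10 members. Shown are *ACSL4*, *FADS1* and *ACSL3*, which rose, and *SCD*, which fell, on the strand of the gene. Capitals mark a GC box (GGGCGG, bound by Sp1, either strand) or an NF-Y box (CCAAT, either strand), and adjoining boxes run together. The stretches leave out other boxes of the same windows, so they do not show a split of boxes by direction. *SCD* also had GC boxes 33 and 11 bases before its start, and *ACSL3* had an NF-Y box 75 bases before. *ELOVL5*, which rose, had NF-Y boxes and no GC box in its window.
*ACSL4*, chrX:109733404-109733477, minus strand: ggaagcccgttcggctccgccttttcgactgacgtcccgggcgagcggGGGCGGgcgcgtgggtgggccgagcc
*FADS1*, chr11:61817204-61817253, minus strand: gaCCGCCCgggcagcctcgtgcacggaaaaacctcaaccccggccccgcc
*ACSL3*, chr2:222860801-222860900, plus strand: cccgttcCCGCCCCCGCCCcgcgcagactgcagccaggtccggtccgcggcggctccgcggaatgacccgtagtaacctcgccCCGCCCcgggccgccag
*SCD*, chr10:100346993-100347062, plus strand: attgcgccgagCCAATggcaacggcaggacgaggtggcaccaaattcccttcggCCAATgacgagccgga
In windows from 250 bases before to 50 bases after the start, the GC box was found in 7 of the 9 windows and in 64.4% of the windows of tested genes, and the NF-Y box in 5 of 9 and in 34.4%. The sterol regulatory element (TCACNCCAC, either strand), the site of the SREBP factors that drive lipid synthesis, was found in 0 of 9 windows and in 0.997% of those of tested genes. The E-box (CACGTG) was found in 1 window, that of *ELOVL5*, and in 9.34% of those of tested genes. Direct repeats for the nuclear receptors LXR and PPAR were found in 0 windows of members and in 0.00608% and 0.0304% of those of tested genes. A match is only a run of letters, and these windows do not cover elements farther away.

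In the sgUSP22 libraries, 5 members rose (*ACSL4*, *FADS1*, *CYB5R1*, *ACSL3* and *ELOVL5*) and 3 fell (*POR*, *SCD* and *AGPS*) at an adjusted p below 0.05 (edgeR's quasi-likelihood test, Benjamini-Hochberg adjustment over all tested genes). *LPCAT3* and *FADS2* did not pass the test. Of all tested genes, 26.8% rose and 25.8% fell by this rule, 52.5% in all, and of the 9116 genes at or above the level of the least abundant member 66% passed in either direction. All the changes were small, from a fall by 14.9% for *POR* to a rise by 33.4% for *ACSL4*. With a fold change of at least 1.5 as a further condition, the threshold for a called gene, 0 members were called in either direction by edgeR. DESeq2 also called 0 members, and of the 16884 genes it tested it called 1206 higher and 943 lower. With edgeR, 8.88% of all tested genes were called higher and 7.25% lower, 16.1% in all. At an unadjusted edgeR p below 0.05 with no fold condition, 5 members were again higher and 3 lower. Of the 15150 tested genes, 4460 were higher and 4278 lower by that rule. Every 95% interval lay inside 1.5-fold, which is 0.585 on the log2 scale, so larger changes of these transcripts lay outside the intervals. The median log2 fold change of the members was 0.23, against 0.0009 over all tested genes.

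**Figure D1:**
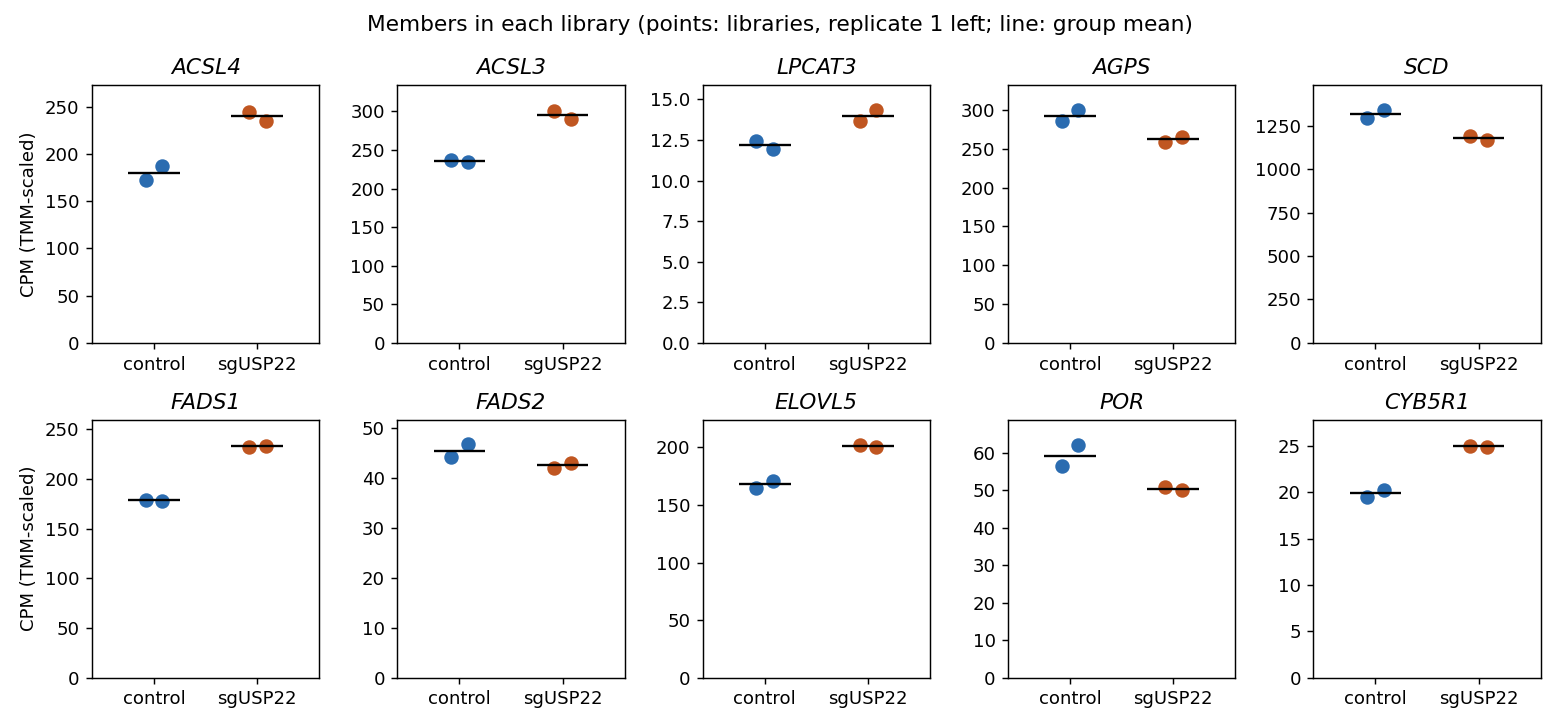
Level of each member in CPM (vertical axis, from 0) in the control and sgUSP22 libraries, with 1 point per library and the group mean as a line. The groups do not overlap for any of the 10 members, 6 higher and 4 lower in sgUSP22 libraries, and *LPCAT3* and *FADS2* did not pass the test.

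The groups did not overlap for any of the 10 members, of which 6 were higher and 4 lower. This was the case for 75.9% of all tested genes, 38.3% higher and 37.6% lower. In bulk RNA, a change in every cell and a change in the share of cells that express a gene cannot be told apart. *ACSL4*, the synthetase for long polyunsaturated fatty acids, had 10535 and 11656 counts in control and 16067 and 15175 counts in sgUSP22 libraries, or 173 and 187 CPM against 244 and 235 CPM. The lowest sgUSP22 library lay above the highest control library, and the log2 fold change was 0.42 ± 0.045 SE (edgeR adjusted p = 3.92e-05). *ACSL3*, its relative with a preference for monounsaturated chains, moved in the same direction, from 237 and 235 CPM to 300.5 and 289 CPM (log2 fold change 0.32 ± 0.036 SE, edgeR adjusted p = 4.5e-05). Both synthetases were thus higher in both sgUSP22 libraries, the one linked to peroxidisable lipid and the one linked to its opposite. Per kb of transcript, the ratio of *ACSL4* to *ACSL3* was 0.853 and 0.929 in control and 0.951 and 0.949 in sgUSP22 libraries, a shift of 0.093 on the log2 scale. The control libraries differed from each other in this ratio by more than the group means did.

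*ACSL4*, *ACSL3* and *AGPS* had long transcripts poor in G and C, and a correction for these features moved them most. Their GC contents were 35.5%, 37.1% and 35.9%, at percentiles 2.54, 5.7 and 2.96 of the tested genes, and their longest transcripts had 7223, 8441 and 11009 bases. With the trends over GC content and transcript length removed from each library, the log2 fold change of *ACSL4* was 0.17 (adjusted p = 0.0197 from limma) and that of *ACSL3* was 0.073 (adjusted p = 0.157 from limma), which no longer passed. *AGPS* moved in the same direction, from -0.16 to -0.45 (adjusted p = 1.09e-05 from limma), which is farther from 0. The trend in log2 fold change at these genes' GC content and length came to 0.24, 0.25 and 0.29.

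*LPCAT3*, the acyltransferase that puts arachidonic acid into phospholipids, was one of the less abundant members, with 758 and 745 counts in control and 898 and 925 counts in sgUSP22 libraries. Its log2 fold change was 0.20 with a 95% interval from -0.011 to 0.41 (edgeR adjusted p = 0.102), and it passed with library size alone (0.25, adjusted p = 0.0465) and after the GC and length correction (0.27, adjusted p = 0.0308). In the GENCODE annotation of hg38, 66% of its merged exon bases also lie in exons of *EMG1*, a gene on the opposite strand. The strand setting of the counting is not given in the sources used here, so reads of both genes may not have been told apart. *EMG1* itself had a log2 fold change of 0.04 ± 0.048 SE (edgeR adjusted p = 0.521).

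*AGPS*, the alkyl transferase of ether lipid synthesis, had 285 and 300.1 CPM in control and 259 and 266 CPM in sgUSP22 libraries. It fell by 10.4%, a log2 fold change of -0.16 ± 0.038 SE (edgeR adjusted p = 0.00565).

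*SCD*, which makes oleic and palmitoleic acid from saturated precursors, was the most abundant member by far. It had 78854 and 83632 counts in control and 78298 and 75375 counts in sgUSP22 libraries, or 1293 and 1340.4 CPM against 1191 and 1168 CPM. Both sgUSP22 libraries lay below both control libraries after scaling, with a log2 fold change of -0.16 ± 0.030 SE (edgeR adjusted p = 0.0016), whereas the raw counts of sgUSP22 replicate 1 and control replicate 1 were close. Within each library, the ratio of *SCD* to *ACSL4* per kb went from 10.3 and 9.88 in control to 6.71 and 6.84 in sgUSP22 libraries. This ratio does not depend on the scaling of libraries, but it is not corrected for the trends over GC content and length. The trend in log2 fold change came to 0.24 at *ACSL4* and 0.057 at *SCD*.

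*SCD* lies on the long arm of chromosome 10 (hg38, 100347233 to 100364826, plus strand), whose genes were mostly lower in the sgUSP22 libraries. Of the other 326 genes that start beyond 40 Mb and reach an average of 1 log2 CPM, 89.6% had a log2 fold change below 0, with a median of -0.42 and quartiles of -0.65 and -0.20. *SCD*, at -0.16, lay above 77% of them and 0.26 above their median, while on the other chromosomes 31.1% of 11293 genes lay below *SCD* and the median was 0.015. *SCD* was therefore lower than in control, but less so than most genes around it, and the direction turned when the long arm median was subtracted. The part of the position in its value was not tested.

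**Figure D2:**
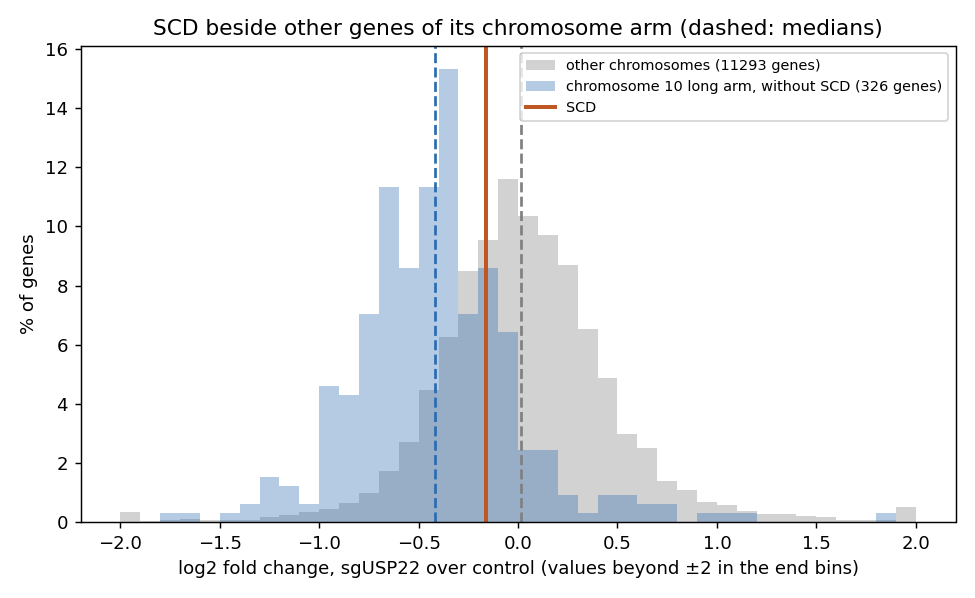
Distribution of log2 fold changes (horizontal axis, sgUSP22 over control) as % of genes, for 326 genes of the chromosome 10 long arm and 11293 genes of other chromosomes, with dashed lines at their medians. *SCD*, the solid line at -0.16, lies between the medians of -0.42 and 0.015.

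The 3 desaturases of the *FADS* cluster on chromosome 11, which lie side by side, went different ways. *FADS1*, which adds the last double bond of arachidonic acid, had 178.6 and 178.1 CPM in control and 232 and 233 CPM in sgUSP22 libraries, the closest replicates among the members relative to their mean. Its log2 fold change was 0.38 with a 95% interval from 0.31 to 0.46 (± 0.034 SE, edgeR adjusted p = 1.13e-05), and it stayed between 0.37 and 0.44 under all the other settings. *FADS2*, which starts the pathway, had 44.2 and 46.7 CPM in control and 42 and 42.8 CPM in sgUSP22 libraries, with a log2 fold change of -0.099 and a 95% interval from -0.22 to 0.024 (adjusted p = 0.161). The intervals of the neighbours do not overlap. *FADS3*, a relative that is not a member, fell from 32.4 and 33.8 CPM to 25.1 and 28.1 CPM (log2 fold change -0.32 ± 0.076 SE, edgeR adjusted p = 0.00572). Per kb, the ratio of *FADS1* to *FADS2* within a library was 4.7 and 4.44 in control and 6.44 and 6.33 in sgUSP22 libraries. The annotated exons of *FADS1* and *FADS2* share 490 bases on opposite strands, or 4.79% of the merged exons of *FADS1*, so a small part of their reads may be shared.

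*ELOVL5*, the elongase that acts between these desaturases, rose from 165 and 171 CPM to 202 and 200.1 CPM (log2 fold change 0.26 ± 0.037 SE, edgeR adjusted p = 0.000246). Both sgUSP22 libraries lay above both control libraries, and the difference was smaller than that of *FADS1*. *CYB5R1*, a cytochrome b5 reductase that takes electrons from NADH, had 1190 and 1266 counts in control and 1645 and 1609 counts in sgUSP22 libraries, a rise by 25.5% (log2 fold change 0.33 ± 0.076 SE, edgeR adjusted p = 0.00472). *POR*, the oxidoreductase that supplies electrons to microsomal cytochromes P450, went the opposite way, from 56.5 and 62 CPM to 50.9 and 50 CPM (log2 fold change -0.23 ± 0.056 SE, edgeR adjusted p = 0.00604). The control libraries of *POR* differed from each other by more than those of *CYB5R1*, and after the GC and length correction *POR* no longer passed (-0.12, adjusted p = 0.0703 from limma).

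**Figure D3:**
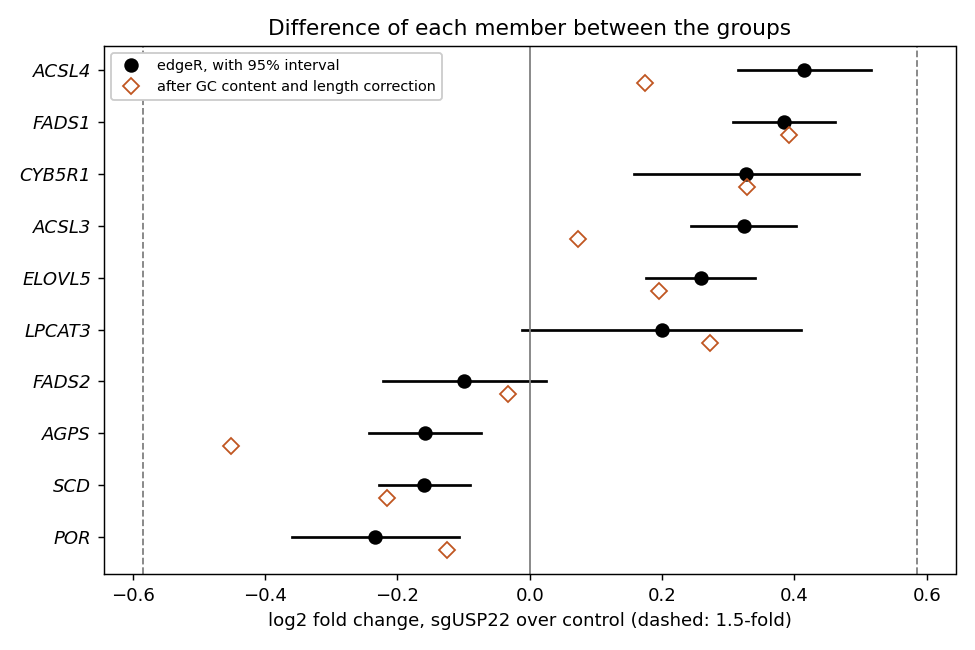
Log2 fold change of each member (horizontal axis, sgUSP22 over control) from edgeR with its 95% interval (circles and lines), and once trends over GC content and length were removed (open diamonds). All intervals lie inside the dashed lines at 1.5-fold, and the diamonds of *ACSL4*, *ACSL3* and *AGPS* lie farthest from their circles.

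Levels were compared between genes per kb of the longest annotated transcript. *SCD* stood highest, at 251 ± 6.38 (SD, n = 2) CPM per kb in control libraries, followed by *ELOVL5* at 54.5 ± 1.39 and *FADS1* at 40.9 ± 0.091. *ACSL3* (27.9 ± 0.141), *AGPS* (26.6 ± 0.942) and *ACSL4* (24.9 ± 1.38) came next in control libraries, and the values of *AGPS* and *ACSL4* differed by less than the sum of their SDs. *POR* had 19.6 ± 1.28, *FADS2* 8.95 ± 0.346, *CYB5R1* 6.56 ± 0.181 and *LPCAT3* 4.2 ± 0.119 CPM per kb. In sgUSP22 libraries the same order held except that *ACSL4* (33.2 ± 0.923) passed *AGPS* (23.8 ± 0.397). The order in the middle rests on the transcript length used, since 4 of the 10 members kept their rank with merged exons, *SCD* and *ELOVL5* at the top and *LPCAT3* at the bottom among them.

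Other genes with names like those of members were mostly scarcer, and a like name does not always mean the same enzyme family. *SCD5*, the other stearoyl-CoA desaturase, had 3.39 ± 0.209 CPM per kb in control libraries, and *ACSL1*, the long-chain synthetase typical of liver, had 2.63 ± 0.353. *ACSL5* had at most 49 counts in any library. *ELOVL2*, the elongase for the longest polyunsaturated chains, and *CYB5A*, a cytochrome b5 that serves the desaturases, were listed at 0 in all 4 libraries, while *CYB5B* was abundant, at 195 ± 5.4 (SD, n = 2) CPM in control libraries. *LPCAT1* (19.5 ± 0.523 CPM per kb) exceeded *LPCAT3*, and *CYB5R3* (31.9 ± 0.447 CPM per kb) exceeded *CYB5R1*.

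**Figure D4:**
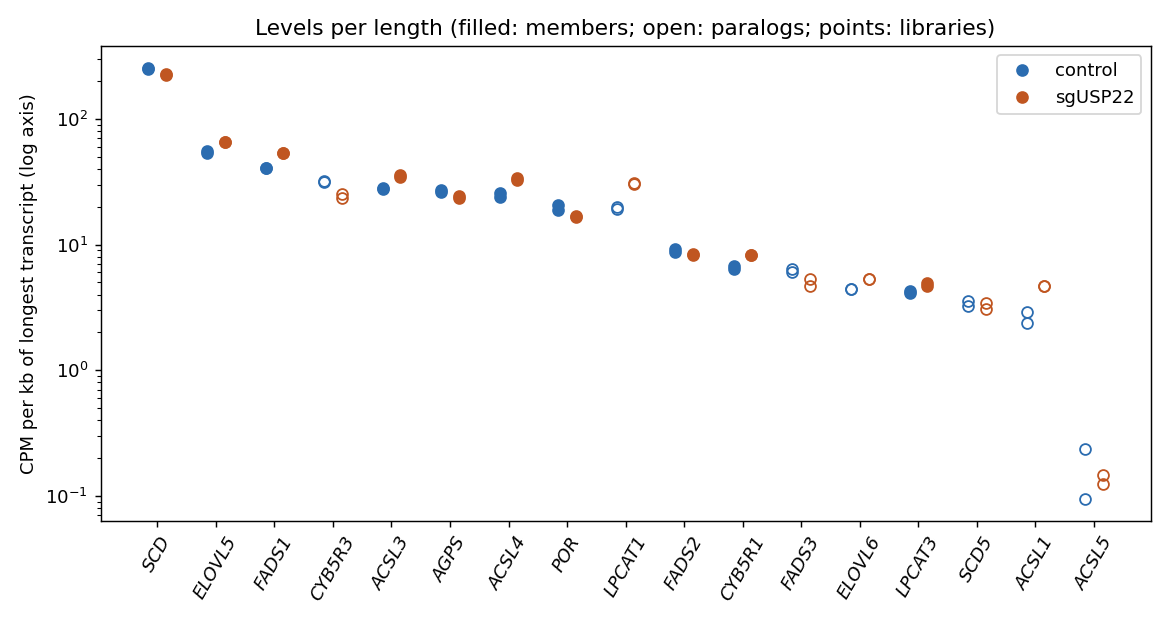
Level of the members (filled) and of other genes of like name (open, called paralogs in the title) in CPM per kb of the longest transcript (vertical log axis), with 1 point per library in control and sgUSP22. *SCD* stands above all the others shown, and *LPCAT1* and *ACSL1* are higher in sgUSP22 libraries. *ELOVL2* and *CYB5A*, listed at 0, are not drawn.

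The remaining genes of the pathway were taken from lists by enzyme class, some of which also hold proteins that are not enzymes. Of 88 genes, 74 passed the filter on low counts, 7 were called higher and 4 were called lower, against 8.88% and 7.25% of all tested genes, and their median log2 fold change was 0.054. Without the fold condition 24 rose and 14 fell, and 36 did not pass, where 26.8% of all tested genes rose and 25.8% fell. The counts of each list below are to be read beside these shares.

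In fatty acid synthesis, *FASN*, the synthase that makes palmitate and so the substrate of *SCD*, was called higher, from 368 and 382 CPM to 696 and 684.5 CPM (log2 fold change 0.88 ± 0.033 SE, edgeR adjusted p = 5.6e-08). *ACACA*, *ACSS2* and *ME1*, which supply malonyl-CoA, acetyl-CoA and NADPH, rose by less, with log2 fold changes of 0.23, 0.23 and 0.19. *SREBF1*, the transcription factor that drives these genes, had a log2 fold change of 0.062 (adjusted p = 0.228), *SCAP*, which escorts it to the Golgi, had -0.045 (adjusted p = 0.394), and *ACLY* had -0.013 (adjusted p = 0.784). Of 9 tested genes of this list, 4 rose and 0 fell, with a median of 0.19. *SCD* thus fell in the same libraries in which the synthase before it rose.

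Among desaturases and elongases, 6 of 11 tested genes rose and 2 fell, with a median of 0.20. *ELOVL3* was called higher, with 64 and 84 counts in control and 168 and 143 counts in sgUSP22 libraries (log2 fold change 0.99, adjusted p = 0.00674), and like *SCD* it lies on the long arm of chromosome 10. Without sgUSP22 replicate 1 it no longer passed (0.87, adjusted p = 0.0542). *HACD4*, a dehydratase of the elongation cycle, was also called higher, with 173 and 120 against 306 and 387 counts (log2 fold change 1.16, adjusted p = 0.0014). Enzymes of the same cycle that serve all chain lengths were split, as *HSD17B12* (0.36), *HACD3* (0.30) and *HACD2* (0.20) rose and *TECR* (-0.30) fell. *ELOVL6*, which lengthens palmitate to stearate, rose by 0.27.

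Among acyl-CoA synthetases, *SLC27A2*, a transporter and synthetase for very long chains, was called higher, from 37.8 and 38.4 CPM to 79.7 and 80.1 CPM (log2 fold change 1.07 ± 0.047 SE, edgeR adjusted p = 1.5e-07). *ACSL1* was called higher too, from 11.4 and 9.41 CPM to 18.6 and 18.3 CPM (log2 fold change 0.83, adjusted p = 0.000138). *SLC27A6* was called lower, with 117 and 100 counts in control and 23 and 20 counts in sgUSP22 libraries (log2 fold change -2.41 ± 0.33 SE, edgeR adjusted p = 0.000183). The remaining 6 tested genes did not pass, and the median of the 9 was -0.16.

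Among lysophospholipid acyltransferases, a list not limited to remodelling enzymes since it includes the *AGPAT* genes, 5 of 13 rose and 4 fell, with a median of 0.10. *LPCAT1*, which prefers saturated acyl chains, was called higher, from 107 and 111 CPM to 171.5 and 170.8 CPM (log2 fold change 0.65 ± 0.038 SE, edgeR adjusted p = 8.82e-07). *MBOAT2*, which places monounsaturated chains into phosphatidylethanolamine, was called lower, from 32.8 and 30.7 CPM to 21.5 and 19.9 CPM (log2 fold change -0.61 ± 0.077 SE, edgeR adjusted p = 0.000104). *MBOAT7*, which places arachidonic acid into phosphatidylinositol, fell by 0.23 on the log2 scale, and *AGPAT5* (0.46) and *LCLAT1* (0.38) rose. *MBOAT2* lay just past 1.5-fold. Its log2 fold change was -0.57 without control replicate 1, -0.56 without sgUSP22 replicate 2 and -0.56 with library size alone, under the threshold in each. After the GC and length correction *MBOAT2* lay farther past the threshold, at -0.83.

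Among phospholipases, 3 of 9 tested genes rose and 2 fell, with a median of 0.050. *PLA2G4A*, the cytosolic enzyme that releases arachidonic acid from phospholipids, was called higher, from 46.9 and 38.2 CPM to 81.2 and 82.7 CPM (log2 fold change 0.94 ± 0.080 SE, edgeR adjusted p = 8.37e-06). *PLA2G4B* was called lower, but its counts were 17 and 251 in control and 6 and 9 in sgUSP22 libraries, and without control replicate 2 its log2 fold change was -1.26 (adjusted p = 0.298) in place of -4.20. *PNPLA8* rose by 0.50 and *PNPLA2*, a triglyceride lipase, fell by 0.36 on the log2 scale.

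In ether lipid synthesis, 4 of 12 tested genes rose and 3 fell, with a median of -0.015. This list also holds *PEX* genes of the peroxisome, which are not enzymes of the pathway. *PEX5* and *PEX19* were among those that rose, and *PEX10* and *PEX16* among those that fell. *FAR1* and *FAR2*, the reductases that make the fatty alcohol which AGPS uses, changed in opposite directions. *FAR1* went from 82.9 and 79.3 CPM to 117 and 123 CPM (log2 fold change 0.57 ± 0.044 SE, edgeR adjusted p = 4.68e-06), just under 1.5-fold, and had 0.31 after the GC and length correction. *FAR2* was called lower, from 7.95 and 9.49 CPM to 5.96 and 5.55 CPM (log2 fold change -0.60, edgeR adjusted p = 0.00391). It was under 1.5-fold without control replicate 2 (-0.47), without sgUSP22 replicate 2 (-0.55) and with library size alone (-0.55). After the GC and length correction *FAR2* lay farther past 1.5-fold, at -0.81. *GNPAT*, the partner of AGPS in the peroxisome, had a log2 fold change of 0.088 (adjusted p = 0.127). The enzyme that closes the plasmalogen pathway, *PEDS1*, had -0.12 (adjusted p = 0.163).

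Among electron carriers, 0 of 6 tested genes rose and 2 fell, with a median of 0.022. *CYB5R3*, the main cytochrome b5 reductase, fell from 125 and 127 CPM to 98.8 and 92.8 CPM (log2 fold change -0.39 ± 0.043 SE, edgeR adjusted p = 4.6e-05), opposite to *CYB5R1*. *CYB5RL* fell by 0.42 on the log2 scale. Lipoxygenases, which peroxidise polyunsaturated fatty acids directly, were scarce. Of the 5 tested genes of their list, which include *ALOX5AP*, a partner protein and not a lipoxygenase, 0 passed in either direction. *ALOX15* had at most 4 counts and *ALOX12* at most 129 counts in any library.

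**Figure D5:**
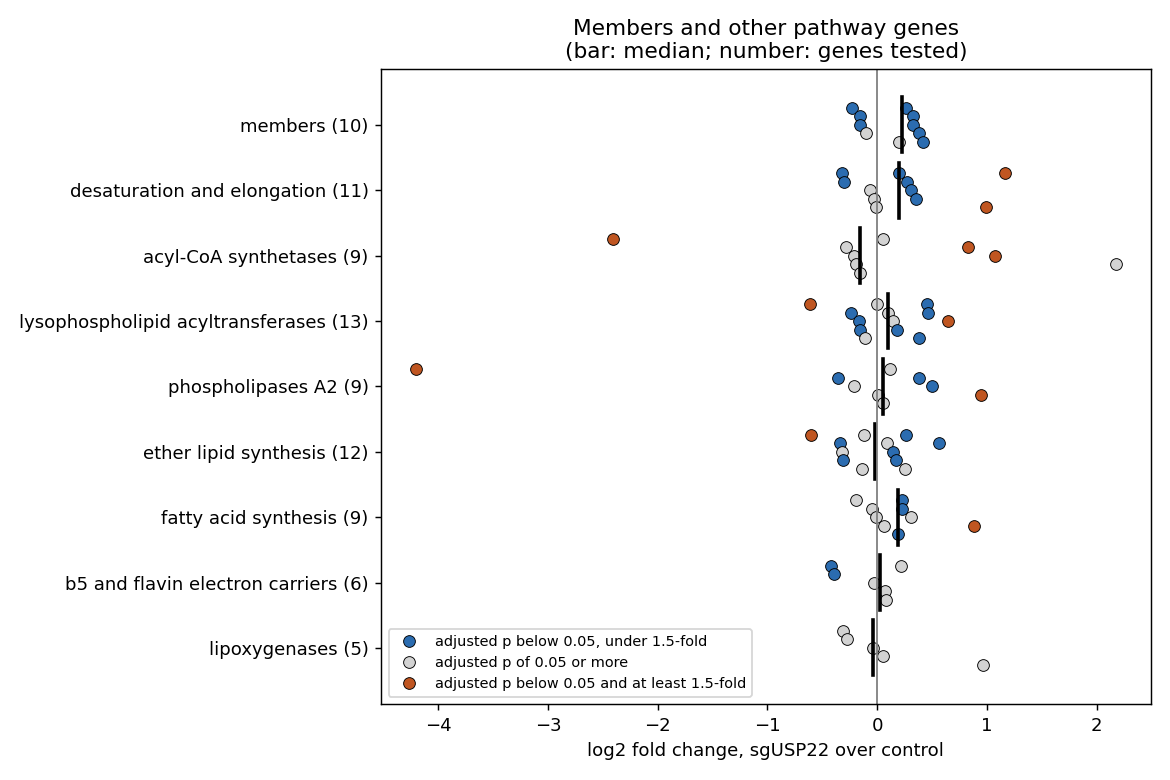
Log2 fold change (horizontal axis, sgUSP22 over control) of the members and of each tested gene of the pathway lists, with bars at the medians and colours for the test result. The members lie between -0.23 and 0.42, while 7 pathway genes lie at or beyond 1.5-fold on the higher side and 4 on the lower side as called genes.

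The genes most like *ACSL4*, the member with the largest change before the GC and length correction (after it, 6 members had larger ones), were found by the distance between their log2 CPM values over the 4 libraries, each centred on the gene's own mean. These were *ATP11B*, a phospholipid flippase subunit (distance 0.0201, log2 fold change 0.40), *COASY*, which makes coenzyme A (0.0223, log2 fold change 0.41), and *SLC36A4*, an amino acid transporter (0.025, log2 fold change 0.41). With 4 libraries in 2 groups, such likeness rests largely on the difference between the groups.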

How the data were processed

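RNA was sequenced on the DNBSEQ-G400 platform. Per the labels and the study's methods, the authors aligned reads to hg38 with HISAT2 2.2.1 and derived gene counts with StringTie 2.2.1. The deposited counts are whole numbers, not normalized for library size or length. The annotation, strand setting and read length are not given in the sources used here. Columns were assigned by name.

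Differences were tested with edgeR 4.0.16 in R 4.3.3 (TMM, filterByExpr with a minimum count of 10, quasi-likelihood test). The SE is the size of the log2 fold change over the root of its F statistic. A count of 0 allows up to 3 counts, between 0.0463 and 0.0484 CPM, for counting error only. Replicates differed by more than sampling noise (mean chi-square per gene 7.86 in control, 8.25 in sgUSP22). Positions, GC content and lengths came from GENCODE v44 on hg38, which matched 26181 of 28278 symbols. The procedure was tested on simulated data.

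The members and lists were chosen with earlier results of these data known, as was the 40 Mb boundary. Named are all members, called list genes, genes of like name and the 3 genes nearest to the member with the largest change in edgeR. Other list genes were named after their values were seen. Alternatives used DESeq2 1.42.0, RLE factors or library size alone, other filters on low counts (none, or a mean of 50 counts), no fold condition, a replicate block, 1 library less, or a GC and length correction (lowess, span 0.3) tested with limma 3.58.1. The same limma fit without the correction was added after the data were seen.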

Additional observations from a re-analysis of the deposited data

How the results depend on the processing

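Among the 10 members, no direction and no adjusted p call changed with DESeq2, RLE factors, either other filter on low counts, the replicate block, or 1 library left out. With library size alone, *LPCAT3* passed (0.25, adjusted p = 0.0465). After the GC and length correction *LPCAT3* passed (0.27), while *ACSL3* (0.073) and *POR* (-0.12) no longer did, and the same limma fit without the correction changed no call. Without the fold threshold, by construction, 5 members were higher and 3 lower, against 0 and 0, and 24 and 14 list genes, against 7 and 4. With library size alone 2 list genes were called lower. Leaving out each library gave 7 to 9 list genes higher and 2 to 4 lower, and for members the count was 0 in each direction. Subtracting the long arm median turned *SCD* from -0.16 to 0.26, or 0.25 with no minimum level. With merged exons 4 of 10 members kept their rank. The replicate numbers share no stated batch, and libraries with the same number deviated from their group means with a correlation of 0.0369 across genes. With the replicate block, 8 list genes were higher and 4 lower, and *ACSL4* and *FADS1* had log2 fold changes of 0.42 and 0.38. In leave-one-out fits the lone library of a group was assumed to vary like the others.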
